A study of Homo sapiens with 2 samples.

Results

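Coenzyme A synthesis and fatty acid oxidation were followed through 10 genes: the pantothenate kinase genes PANK1, PANK2 and PANK3, the carnitine acyltransferase genes CPT1A, CPT1C, CPT2 and CROT, the lipin gene LPIN1, and the beta-oxidation genes ACAD11 and HADHA. They were chosen by name, with earlier results of these data known, as the probe sets whose platform gene symbol is 1 of the 10. Of the 10 genes, 9 were found, with 10 probe sets of the 33297 on the array, and ACAD11 is not analysed here. The data are 2 Affymetrix arrays of total RNA from H1299, a lung carcinoma cell line without p53 of its own, with 1 array for cells given p53 and 1 for cells labelled negative control. The series concerns gene regulation by p53 and 5-hydroxymethylcytosine. The labels give no dose, time or route for p53, and name no further allele or agent in either group. With 1 array per group no difference has a replicate error or a p-value, and each describes these 2 arrays.

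Coenzyme A carries acyl groups in the cell, and pantothenate kinase catalyses the first and rate-limiting step of its synthesis from vitamin B5. Long-chain fatty acids are joined to coenzyme A, passed to carnitine by CPT1 at the outer mitochondrial membrane, returned to coenzyme A by CPT2 inside, and shortened by beta-oxidation. Peroxisomes shorten very long and branched chains first, and CROT turns the products into carnitine esters. The transcription factor p53 is known for restraining the cell cycle, and several of its described targets act in these pathways.

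The genes PANK1, PANK2 and PANK3 each contain a microRNA gene in an intron. These 3 microRNA genes have probe sets of their own on the array, so their sequences are shown first. In the RefSeq tables, on build GRCh38.p14, each hairpin lies within the span of its host gene and on the same strand. MIR107 lies in PANK1 at chr10:89592747-89592827 (minus strand), MIR103A2 in PANK2 at chr20:3917494-3917571 (plus strand) and MIR103A1 in PANK3 at chr5:168560896-168560973 (minus strand). In the hairpins below, written 5′ to 3′, capitals mark the mature microRNA of the 3′ arm.
MIR107 hairpin: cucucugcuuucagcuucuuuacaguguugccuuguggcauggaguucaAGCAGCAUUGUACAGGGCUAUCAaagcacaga
MIR103A2 hairpin: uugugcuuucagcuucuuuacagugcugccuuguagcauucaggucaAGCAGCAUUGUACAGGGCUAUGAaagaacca
MIR103A1 hairpin: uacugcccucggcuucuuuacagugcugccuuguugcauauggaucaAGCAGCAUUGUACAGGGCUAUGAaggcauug
Both MIR103A genes give the same mature sequence, and the 2 distinct mature microRNAs share their seed, bases 2 to 8 from the 5′ end, set in capitals in the next lines.
hsa-miR-107: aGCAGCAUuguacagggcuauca
hsa-miR-103a-3p: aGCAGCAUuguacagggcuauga
They have 22 of 23 positions in common and differ by C22G, counted from the 5′ end with the base of miR-107 first.

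PANK1 was far higher with p53, and none of the other pantothenate kinase genes differed by 2-fold. PANK1 had a log2 intensity of 9.96 in the p53 array and 7.10 in the control array, a difference of 2.87 or 7.30-fold. Differences throughout are log2 with p53 minus log2 in the control. The RNA came from whole cultures, so more RNA per cell and more cells with the RNA cannot be told apart. PANK2, whose product is a mitochondrial pantothenate kinase, read 9.37 in the p53 array against 9.30 in the control, a difference of 0.06. A second, dimmer probe set of PANK2 read 7.92 and 7.79, a difference of 0.14. PANK3, a cytosolic pantothenate kinase gene, stood at 10.12 and 10.38, a difference of -0.25. PANK4, a related gene that is not among the 10, was listed at 8.38 in both arrays. The differences of the 3 family genes other than PANK1 thus ran from -0.25 to 0.06.

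The control value of PANK1 was dim. Genes were kept for counting when the higher of the 2 arrays reached 7.38, the median of all probe sets, and PANK1 passed through the p53 array alone. With control values below that level raised to it, an alternative chosen after seeing the data, its difference was 2.58. Of the 11436 kept genes, 79 (0.691%), PANK1 included, had a difference at least as large in the same direction. The set was chosen with earlier results of these data known, so this rank is a description and no independent support.

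**Figure D1:**
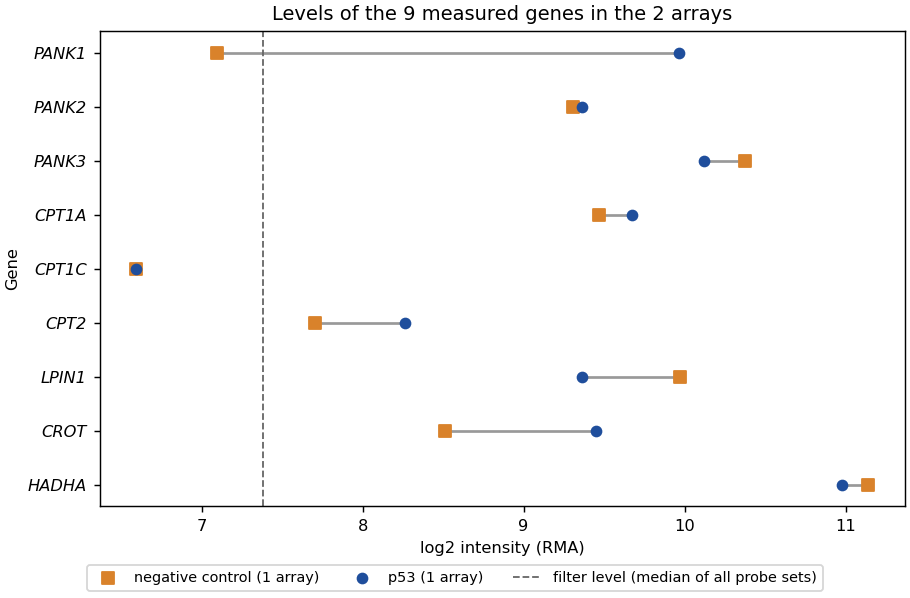
Log2 intensity (horizontal axis) of each of the 9 measured genes in the p53 array (blue circles) and the negative control array (orange squares), 1 array each; the dashed line is the filter level of 7.38. PANK1 reads 7.10 in the control and 9.96 with p53, CROT reads 8.51 and 9.45, and CPT1C has the same value in both. Positions are to be compared within a row only, since probes differ between genes.

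The microRNA gene inside PANK1 was also higher with p53. MIR107 read 8.63 in the p53 array against 6.56 in the control, a difference of 2.07 or 4.19-fold. MIR103A2, inside PANK2, stood at 6.13 and 5.81, a difference of 0.32, with both values below the filter level. MIR103A1, inside PANK3, was listed at 5.73 in both arrays, also below the filter level. Only MIR107 was kept, so the other hosted microRNA genes could not be called, and the calls cannot link microRNA genes to their hosts. MIR107 passed the filter through the p53 array alone, and with dim values raised to 7.38 its difference was 1.24. Total RNA was labelled, so that signal from the host's unspliced transcript, the hairpin and the mature microRNA cannot be told apart. The level of mature miR-107, with the seed shown above, was not measured here.

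The start-site windows of the set were searched for the p53 half-site, the decamer that binds a pair of p53 subunits. The motif reads the same on both strands in its degenerate form, and it was searched by exact match to that form in RefSeq windows from 250 bases before to 50 bases after each annotated start. Among all 35116 such windows, 6.63% held at least 1 half-site. The 9 genes with a window had 18 windows, and 4 of them, from PANK1 and PANK2, held it. The PANK1 window at chr10:89645193-89645492 (minus strand, GRCh38.p14) had it 23 bases upstream of the start, counted to its first base, in capitals here.
PANK1 window: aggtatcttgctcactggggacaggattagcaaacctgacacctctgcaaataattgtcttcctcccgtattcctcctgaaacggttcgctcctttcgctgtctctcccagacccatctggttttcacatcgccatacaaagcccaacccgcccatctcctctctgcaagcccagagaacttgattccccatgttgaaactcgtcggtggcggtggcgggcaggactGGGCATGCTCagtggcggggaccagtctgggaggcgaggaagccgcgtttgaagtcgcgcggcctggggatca
The other window of PANK1 held none. The 3 windows of PANK2 that held a half-site overlap and share a single one, in capitals in the window at chr20:3888531-3888830 (plus strand), where it begins 20 bases upstream of the start.
PANK2 window: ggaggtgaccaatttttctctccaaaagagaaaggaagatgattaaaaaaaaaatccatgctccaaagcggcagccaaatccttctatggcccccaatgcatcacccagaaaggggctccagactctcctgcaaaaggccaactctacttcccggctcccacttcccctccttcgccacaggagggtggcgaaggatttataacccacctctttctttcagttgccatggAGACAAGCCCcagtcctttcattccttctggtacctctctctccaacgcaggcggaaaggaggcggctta
PANK1 and PANK2 thus both carry such a match, with differences of 2.87 and 0.06. A match describes letters, and binding was not measured in these data.

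Of the set's 4 carnitine acyltransferase genes, CROT had the largest difference and none reached 2-fold. CROT, the peroxisomal carnitine octanoyltransferase gene, read 9.45 in the p53 array against 8.51 in the control, a difference of 0.94 or 1.91-fold. With a lowess trend on intensity removed its difference was 1.06, which is past 2-fold. CPT2, the inner-membrane enzyme gene, stood at 8.26 and 7.71, a difference of 0.56 or 1.47-fold. CPT1A, the liver-type CPT1 gene, stood at 9.67 and 9.47, a difference of 0.20. CPT1C, the brain-type CPT1 gene, was listed at 6.59 in both arrays, below the filter level. The probe set of CPT1B, the muscle-type gene, carries several gene symbols and was not used. The related gene CRAT, described with the carnitine list, had a difference of 1.02. Of all probe sets, 35.9% were listed at exactly the same value in both arrays, as CPT1C was, and among kept genes 14.6% were.

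LPIN1 was lower with p53, while another lipin gene was the largest positive difference in the pathway lists. Lipins are phosphatidate phosphatases that make diacylglycerol, and LPIN1 is also known as a nuclear coactivator of fatty acid oxidation genes. LPIN1 read 9.36 in the p53 array against 9.97 in the control, a difference of -0.61 or 1.53-fold lower. LPIN2 stood at 8.21 and 8.85, a difference of -0.64. LPIN3 stood at 10.25 and 7.35, a difference of 2.89 or 7.43-fold higher, from a control value just under the filter level. The differences of the 3 lipin genes thus spanned 3.53 on the log2 scale, against 3.12 for the 4 pantothenate kinase genes. HADHA, the alpha subunit gene of the mitochondrial trifunctional protein, read 10.98 in the p53 array against 11.14 in the control, a difference of -0.16.

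**Figure D2:**
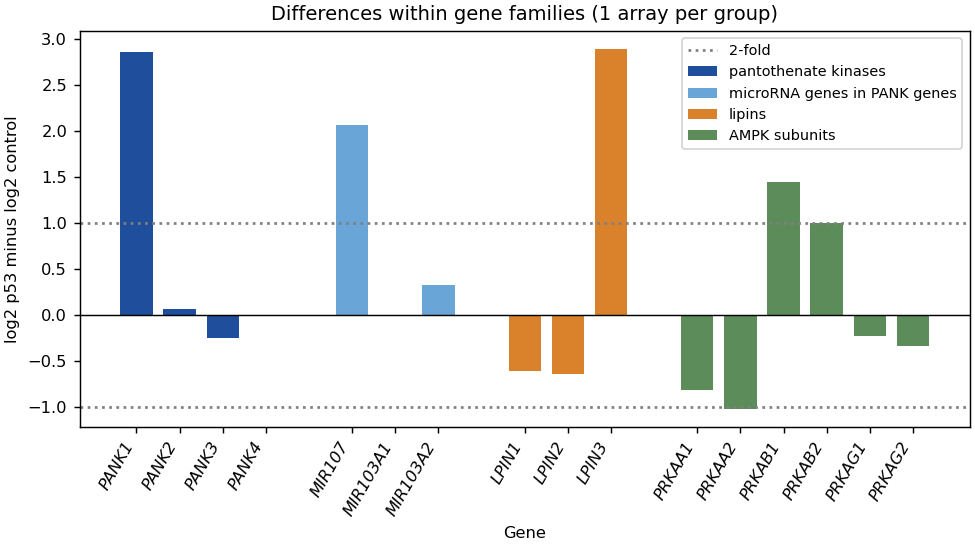
Difference between the p53 and the negative control array (log2 p53 minus log2 control, vertical axis) for the pantothenate kinase genes, the microRNA genes inside them, the lipin genes and subunit genes of the kinase AMPK, 1 array per group, so without error bars; dotted lines mark 2-fold. PANK1 (2.87) and LPIN3 (2.89) stand far above the other genes of their families, MIR107 stands at 2.07, and PANK4 and MIR103A1 are at 0. PANK1, MIR107 and LPIN3 were below the filter level in the control array. MIR103A1 and MIR103A2 were below it in both arrays, so they could not be called.

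Taking the 10 genes as a set, 1 of the 8 kept genes was at least 2-fold higher with p53, where 8.21% of all kept genes were. None was at least 2-fold lower, where 5.79% of kept genes were. At 1.5-fold, 2 were higher (PANK1 and CROT; background 14.4%) and 1 was lower (LPIN1; background 15.5%). With 8 genes, 1 call corresponds to 12.5%, so these counts do not separate the set from its background. Over all 18417 genes, 4950 were above 0, 6963 below and 6504 at 0. Of the 9 measured genes of the set, 5 were above 0, 3 below and 1 at 0. Their median difference was 0.06, beside 0.00 over all 18417 genes, a value fixed by the equal readings, and -0.01 over kept genes. Without genes listed at equal values these medians were 0.13 for the set and -0.07 for all genes.

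**Figure D3:**
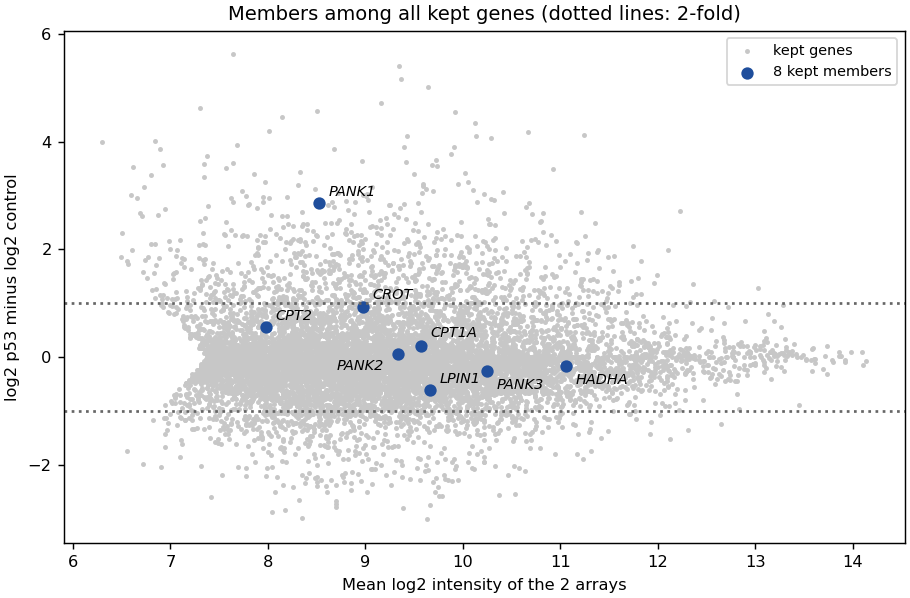
Difference between the arrays (log2 p53 minus log2 control, vertical axis) against the mean log2 intensity of the 2 arrays for the 11436 kept genes (grey), with the 8 kept genes of the set in blue and named; dotted lines mark 2-fold. PANK1 lies at 2.87, CROT at 0.94 just under the upper line, and the other 6 lie between -0.61 and 0.56.

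The spread between probe sets of the same gene gives a scale for the small differences. In 309 genes with 2 kept probe sets that do not hold identical values, the standard deviation of the gap between their differences, estimated from the median absolute deviation, was 0.133. The differences of PANK2 and, among genes with a single probe set, HADHA and CPT1A are of that order. It comes from probes of the same hybridisations and cannot stand for replicate cultures.

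Outside the 10 genes, 97 genes of the same pathways were listed, and 89 were measured. Of the 69 that were kept, 6 were at least 2-fold higher with p53 (8.70%, background 8.21%) and 4 were at least 2-fold lower (5.80%, background 5.79%). Both shares were close to those of all kept genes.

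Of the other coenzyme A genes, 8 were kept of 11 measured. The median over measured genes was -0.06, or -0.07 without the 2 listed at equal values. Among the kept genes, 1 was at least 2-fold higher (12.5%, background 8.21%) and none lower (background 5.79%). The higher gene was SLC25A16, a mitochondrial carrier gene linked to coenzyme A, which read 9.26 in the p53 array against 7.62 in the control (3.13-fold higher). PPCS, PPCDC and COASY, which encode the enzymes after pantothenate kinase, had differences of -0.05, -0.21 and -0.48, with PPCDC below the filter. Among the measured pantothenate kinase genes, PPCS, PPCDC and COASY, PANK1 was the 1 gene that differed by 2-fold or more. PPCS, PPCDC and COASY were named after their values were seen.

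Of the other carnitine genes, 6 were kept of 8 measured, 1 was higher (16.7%, background 8.21%) and 1 lower (16.7%, background 5.79%). Their median over measured genes was -0.09, or -0.24 without the 2 listed at equal values. CRAT, the carnitine acetyltransferase gene, read 10.63 in the p53 array against 9.61 in the control (2.02-fold higher), and was under 2-fold (0.99) with an offset of 32 added before log2. SLC16A9, a carnitine transporter gene, read 6.31 in the p53 array against 7.93 in the control, a difference of -1.62. Its p53 value was below the filter, and with dim values raised to 7.38 the difference was -0.54. SLC25A20, the carrier that brings acylcarnitines through the inner membrane, had a difference of 0.46.

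Of 19 kept genes in the mitochondrial beta-oxidation list, from 20 measured, none was at least 2-fold higher (background 8.21%) or lower (background 5.79%). The median over measured genes of this list was -0.04, or -0.10 without the 4 listed at equal values. The largest differences among kept genes were those of the acyl-CoA dehydrogenase genes ACAD9 (-0.57), ACADM (-0.53) and ACAD8 (-0.50). HADHB, the partner subunit of HADHA, had a difference of 0.01.

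In the peroxisomal list, 2 of 11 kept genes were higher (18.2%, background 8.21%) and 1 was lower (9.09%, background 5.79%). The median over 14 measured genes was 0.03, or 0.29 without the 4 listed at equal values. PHYH, the enzyme that starts the breakdown of branched phytanic acid, read 8.91 in the p53 array against 7.43 in the control (2.78-fold higher). The other higher gene was CRAT, which is on both lists. ABCD2, a peroxisomal importer gene of very long chains, read 6.37 in the p53 array against 7.58 in the control, a difference of -1.22, which was -0.20 with dim values raised to 7.38. In the list of fatty acid activation, 1 of 7 kept genes was at least 2-fold lower (14.3%, background 5.79%) and none at least 2-fold higher (background 8.21%). The 15 measured genes had a median of 0.00, or 0.22 without the 5 listed at equal values. The lower gene was ACSL4, a ligase of arachidonic acid to coenzyme A. It read 8.56 in the p53 array against 9.61 in the control (2.07-fold lower), and its difference was -0.92 with the lowess trend removed.

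**Figure D4:**
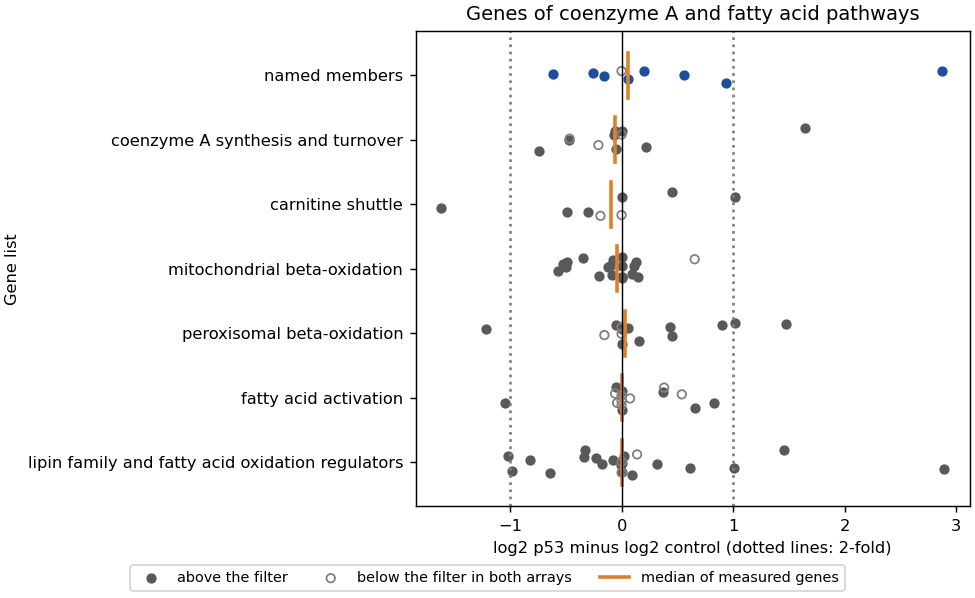
Difference between the arrays (log2 p53 minus log2 control, horizontal axis) of each measured gene in the set (blue) and in the 6 further pathway lists (grey), with genes below the filter in both arrays as open circles, list medians in orange and dotted lines at 2-fold. Genes of the mitochondrial beta-oxidation list lie between -0.57 and 0.66, while single genes of the other lists lie beyond 2-fold. The vertical position within a row is arbitrary.

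Among lipins and regulators, 3 of 19 kept genes were past 2-fold upward (15.8%, background 8.21%) and 1 downward (5.26%, background 5.79%). The 22 measured genes had a median of 0.00, or -0.04 without the 4 listed at equal values. Besides LPIN3, the higher genes were both beta subunits of AMPK, the kinase that promotes fatty acid oxidation when energy is low. PRKAB1 read 11.93 in the p53 array against 10.48 in the control (2.73-fold higher), and PRKAB2 read 10.17 against 9.16, just past 2-fold. PRKAB2 was under 2-fold (0.96) with an offset of 32. Of the catalytic alpha subunit genes, PRKAA2 read 7.45 in the p53 array against 8.47 in the control, a difference of -1.02. It was short of 2-fold with the lowess trend removed (-0.95), with quantile normalization (-0.9986) and with the offset (-0.90), and was not kept by the filter at the 75th percentile. PRKAA1 stood at 9.58 and 10.40, a difference of -0.82. The gamma subunit genes PRKAG1 and PRKAG2 had differences of -0.23 and -0.34.

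As a check of the labels, the p53 targets CDKN1A and MDM2 were 11.2-fold and 6.55-fold higher in the array labelled p53. Of 9 genes listed as markers for a lung carcinoma line, 5 were above the filter level. KRT8, KRT18 and VIM were above 12 on the log2 scale in both arrays. CDH2 read 10.77 in the p53 array against 10.85 in the control, and KRT7 read 7.72 against 7.80. EPCAM, CDH1, KRT19 and the lung factor NKX2-1 were below the filter level in both. Above the filter were 2 of 5 measured haematopoietic markers (CD68 and ITGAM), 1 of 7 endothelial and fibroblast markers and 2 of 9 markers of liver, fat and muscle. PTPRC, PECAM1, ALB and ADIPOQ were below it in both arrays. None of these markers differed by 2-fold between the arrays, with a range from -0.38 to 0.78.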

How the data were processed

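Each array has a deposited log2 intensity for every probe set, made by the authors with RMA per the submitters' processing notes. The log2 scale was read from the values, and for the software version and genome build the sources used here give nothing. The sorted values of both arrays differed by at most 0.192, so a global shift of RNA per cell cannot be read. Precision is limited by having 1 array in each group.

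Of the 33297 probe sets, GEO's platform annotation gave 19460 a single symbol, updated through the gene identifier to RefSeq; 1754 with several and 12083 with none were left out. For a gene with several probe sets the one with the highest mean was used. Genes were kept where the higher array reached the median of all probe sets (7.38), and called by size at 2-fold, with no test. Members and lists were chosen with earlier results of these data known. Named are the set, its families, hosted microRNA genes and list genes past 2-fold (otherwise the 3 largest). A planned search for genes nearest in level is not reported, since levels of different probes cannot be compared. PPCS, PPCDC, COASY, SLC25A20, HADHB and the AMPK subunits under 2-fold were named after their values were seen. Calls were tested on simulated data. Printed sequences are RefSeq's. Python 3.11.15, numpy 2.4.6, pandas 2.3.3, statsmodels 0.14.6 and matplotlib 3.10.9 were used.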

Additional observations from a re-analysis of the deposited data

How the results depend on the processing

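The settings tried in turn were a filter at the 75th percentile (9.01) or none, 1.5-fold and 3-fold thresholds, centring on the median, removal of a lowess trend (span 0.3), the mean over probe sets, quantile normalization, an offset of 32 and a floor at the 25th percentile (5.97). A floor at the median and a filter on the mean of both arrays were chosen after seeing the data. PANK1 was at least 2-fold higher in each, with differences from 2.58 to 2.98, and the median difference of the set ran from 0.06 to 0.19. Higher members numbered 2 at 1.5-fold and 2 with the lowess trend removed, where CROT joined PANK1, and lower members numbered 1 at 1.5-fold. Higher genes in the other pathway lists, 6 in the chosen setting, numbered 10 at 1.5-fold, 2 at 3-fold, 4 with the offset and 5 with the stricter filter, where PHYH was not kept. Lower ones, 4 in the chosen setting, numbered 8 at 1.5-fold, 1 at 3-fold, 1 with the filter at the 75th percentile, 1 with the offset, and 2 each with the lowess trend removed, with the floor at the median and with the filter on the mean, and 3 with quantile normalization. The count of lower pathway genes thus rests on genes near 2-fold or near the filter. Among the higher genes, CRAT and PRKAB2 were near 2-fold and fell short of it with the offset. LPIN3 and SLC25A16 were called higher in every setting, and no gene was called lower in every setting. None of the pathway genes past 2-fold, nor MIR107, changed direction in these alternatives. No paired analysis was possible because each group has 1 array, and no replicate could be left out.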
